A study of Homo sapiens with 12 samples.

Results

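LNCaP cells that received miR-130a were compared directly with LNCaP cells that received miR-205. The comparison used the 3 arrays labelled miR-130a and the 3 labelled miR-205, out of 12 arrays in the series. LNCaP is an established, androgen-responsive prostate cancer cell line. Each group of 3 arrays is labelled as biological replicates of transfected LNCaP cells, and the groups differ by the microRNA given: miR-130a, miR-205 or a scramble microRNA. The remaining 3 arrays, of miR-203 cells, entered the choice of probe sets and tested genes and the estimate of spread. No time after transfection or dose was found in the labels. All groups share the parental line, so the comparison describes 1 line. The genes were all probe sets with exactly 1 gene symbol, 1 probe set per gene (the one with the highest mean over the 12 arrays), which gave 11963 genes. Of these, 6821 lay above the median of their own array on at least 3 of the 12 arrays and were tested. The scramble arrays were used to show on which side a difference lay.

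MicroRNAs are short RNAs that guide Argonaute proteins to messenger RNAs with a match to the seed, the bases near the 5′ end of the microRNA, and lower the stability or translation of those messages. Prostate tumors are described as having less of both microRNAs than normal prostate, and miR-205 is abundant in basal epithelial cells. A message can also change without being a target, since interferon, androgen and cell cycle programs respond to many inputs. The mature guide strand of miR-205 is given here as the sequence that defines one side of the comparison, with seed bases 2 to 8 in capitals, from RefSeq on GRCh38.p14 at chr1:209432166-209432187, + strand. The other side is miR-130a-3p, the guide strand of miR-130a.
miR-205-5p: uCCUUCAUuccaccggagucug

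All values are the deposited log2 values or differences of them, so 1 unit is a change of 2-fold. The values start at 2.36, which is the floor, and array medians lay between 2.76 and 2.78, so a level near 2.8 is close to background. Across the tested genes, r was 0.997 between arrays of the miR-130a group, 0.995 to 0.997 within miR-205, and 0.964 to 0.970 between the groups. The 3′ minus 5′ difference of GAPDH, a sign of RNA quality, was 0.72 to 0.74 log2 on miR-130a arrays, 0.60 to 0.73 on miR-205 arrays and 0.56 to 0.90 on scramble arrays, so the groups overlapped. That of ACTB was larger, 2.18 to 2.335 on miR-130a, 2.21 to 2.46 on miR-205 and 2.30 to 2.66 on scramble arrays. The groups overlapped there too. Of 10 luminal prostate markers, 9 lay above the median on all 12 arrays. The other, TARP, lay below it on every array in its probe set with 1 symbol. TARP also shares 4 probe sets with other symbols, which were not tested as genes. They were 2.03 to 2.20 log2 higher in miR-130a than in miR-205 cells. On all arrays of these groups and scramble they lay above the median. All 4 basal markers, including KRT5 and KRT14, and all 8 leukocyte and endothelial markers, including PTPRC and PECAM1, lay below it on every array, as did 6 of 7 neuroendocrine markers and 7 of 11 fibroblast and smooth muscle markers. The summed log2 level of the fibroblast and smooth muscle markers was 29.2 to 29.7 on miR-130a arrays, 28.2 to 28.4 on miR-205 arrays and 28.7 to 29.3 on scramble arrays, and its part in the results was not tested.

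Transcripts differed between miR-130a and miR-205 cells over much of the measured range. With limma over all 12 arrays and Benjamini-Hochberg adjustment, 1243 genes (18.2% of those tested) were higher in miR-130a than in miR-205 cells and 1050 (15.4%) were lower at an adjusted p under 0.05, together 2293 (33.6%). The median difference over all tested genes was -0.01 log2. The miR-130a and miR-205 arrays did not overlap for 3393 genes (49.7%). Large differences were mostly one way: 235 genes were at least 2-fold higher and 38 at least 2-fold lower in miR-130a cells, and 39 against 0 were at least 4-fold apart. Dim genes count here at their bound, which is the mean of the bright group over the array median or the dim value, whichever is higher. In 45 of the higher genes the transcript lay below the median on all 3 miR-205 arrays, and in 15 of the lower genes on all 3 miR-130a arrays.

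**Figure D1:**
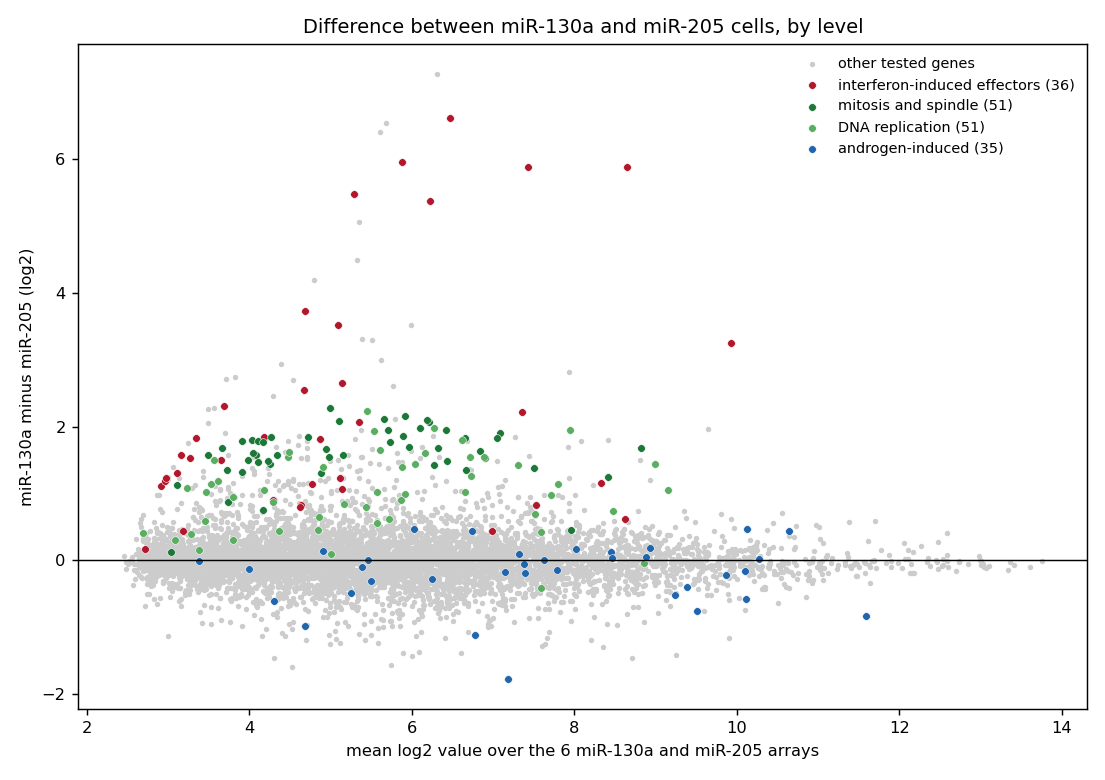
Difference between miR-130a and miR-205 cells (vertical axis, log2) against the mean level over the 6 arrays (horizontal axis, log2) for the 6821 tested genes, with members of 4 gene lists coloured. Interferon-induced effectors reach 6.61 log2 above 0, nearly all mitosis and replication genes lie above 0, and the androgen-induced genes include the lowest point, MAF at -1.77.

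The scramble arrays show which cells carried each difference. The scramble mean was placed on a line on which 0 is the miR-205 mean and 1 the miR-130a mean. A position within 0.25 of 0 puts the change on the miR-130a side, one within 0.25 of 1 on the miR-205 side, and one between 0.25 and 0.75 on both sides. At positions further out, scramble lay beyond one of the groups. Of the genes higher in miR-130a cells, 258 (20.8%) lay on the miR-130a side, 334 (26.9%) on the miR-205 side and 454 (36.5%) on both sides. Scramble lay beyond miR-205 for 77 of them and beyond miR-130a for 120. Of the lower genes, 253 (24.1%) lay on the miR-130a side, 240 (22.9%) on the miR-205 side and 390 (37.1%) on both. For comparison, each microRNA was also set against the same scramble arrays, which the comparisons therefore share. There, miR-130a cells had 819 genes higher (12% of those tested) and 791 lower (11.6%), and miR-205 cells had 771 higher (11.3%) and 1010 lower (14.8%).

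**Figure D2:**
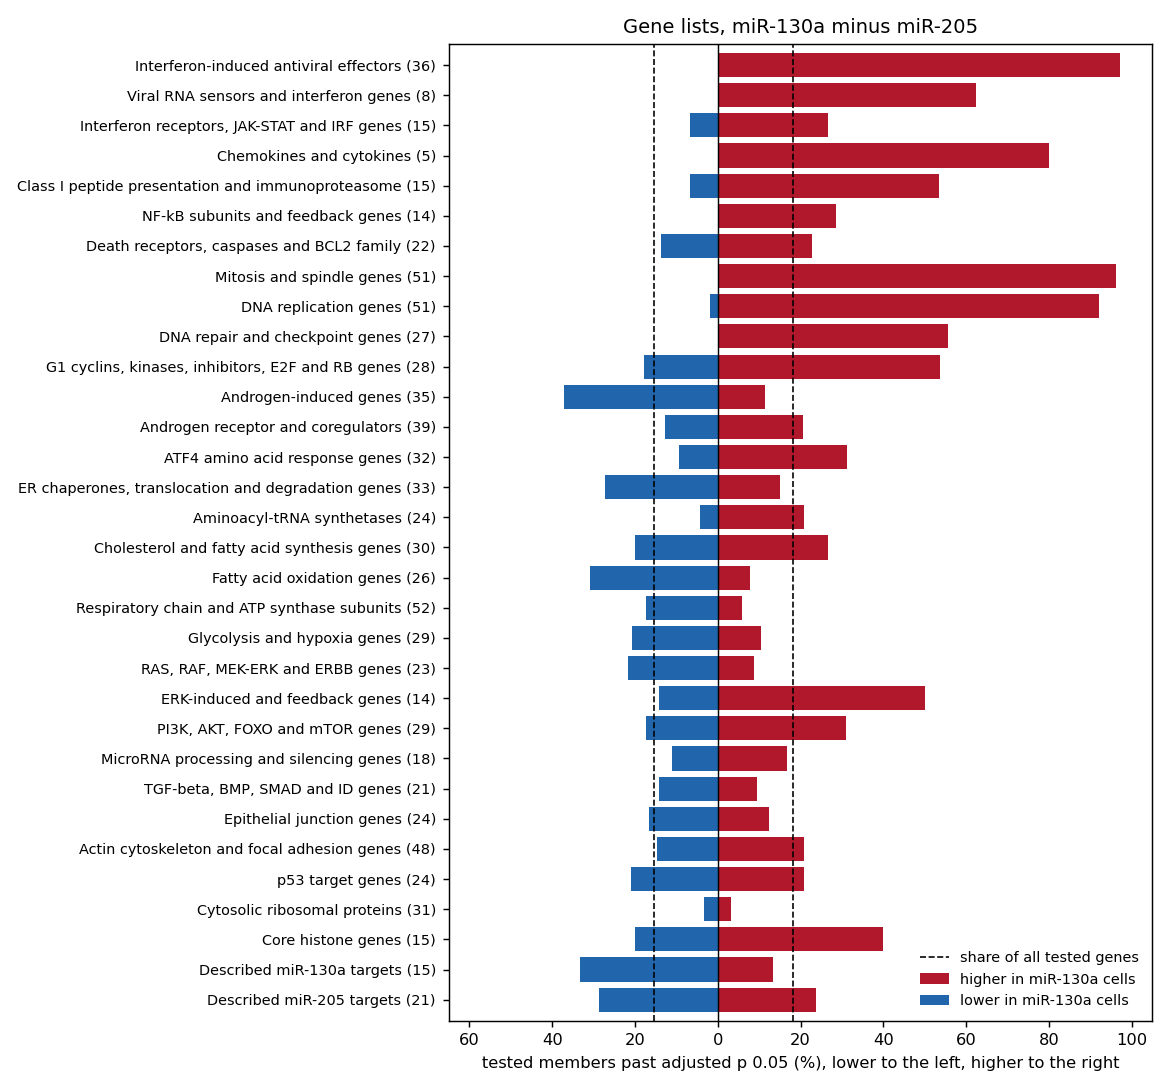
Share of tested members of each of 32 gene lists past the adjusted p threshold of 0.05 in miR-130a minus miR-205 (horizontal axis, percent, higher to the right and lower to the left), with the number tested in brackets and dashed lines at the shares of all tested genes, 18.2% and 15.4%. Interferon-induced effectors, mitosis, replication, DNA repair and chemokine lists extend far to the right, and the androgen-induced list extends furthest to the left.

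Interferon-induced antiviral genes were far higher in miR-130a than in miR-205 cells, and the change lay on the miR-130a side. Type I interferon acts through a cell-surface receptor and the STAT and IRF9 proteins, which bind interferon response elements and switch on genes whose products block viral RNA, protein and particle production. Of 41 listed effector genes on the arrays, 36 were tested and 35 of these were higher in miR-130a cells, none was lower and TRIM25 did not pass. The filter depends on this change for some members: 10 of the 36 lay below the median on all miR-205 arrays, and 9 of those 10 were higher. For the 22 members above the median on all 6 miR-205 and scramble arrays, 22 were higher, against 17.8% of the 6473 tested genes with that property. Without genes that have equal values in a group, 23 members were higher. The median difference of the 36 was 1.55 log2, against -0.01 for all tested genes. By position, 28 of the 35 lay on the miR-130a side. Against scramble, 32 of 36 were higher in miR-130a cells and 3 in miR-205 cells, against 12% and 11.3% of all tested genes. Lower than scramble were 0 in miR-130a cells and 4 in miR-205 cells, against 11.6% and 14.8%. In bulk RNA a larger share of responding cells and more RNA per cell cannot be told apart.

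The IFIT proteins bind viral RNA that lacks a host cap. IFIT1 had log2 levels of 11.54, 11.71 and 11.54 on the miR-130a arrays, 5.61, 5.77 and 5.76 on the miR-205 arrays, and 4.98, 4.74 and 4.87 on the scramble arrays. The miR-205 arrays also lay above scramble without overlap, by 0.85 (limma adjusted p = 1.98e-05). The difference between miR-130a and miR-205 was 5.89 ± 0.09 log2 (SE, n = 3 each, limma adjusted p = 3.73e-14), a fold of 59.2. IFIT3 had 9.68, 9.97 and 9.66 in miR-130a cells, against 3.17, 3.17 and 3.13 in miR-205 cells and 3.04, 2.99 and 3.17 in scramble cells. IFIT3 differed by 6.61 ± 0.12 (limma adjusted p = 1.45e-13) and IFIT2 was at least 61-fold higher (limma adjusted p = 9.85e-12). IFIT2 was above the array median on 2 of the 3 miR-205 arrays, and here and below a gene above it on only some of them has a bound, with each dim array counted at its median. ISG15, a ubiquitin-like protein named here after its values were seen, had 11.58, 11.67 and 11.39 in miR-130a cells and 8.29, 8.23 and 8.38 in miR-205 cells, so it was bright in both groups.

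Among enzymes and other effectors, OASL, a member of the 2′-5′ oligoadenylate synthetase family, was higher by 5.88 ± 0.13 log2. OAS1, an enzyme of that family that senses double-stranded RNA, was above the median on 1 of 3 miR-205 arrays and no scramble array, and was at least 12.7-fold higher in miR-130a than in miR-205 cells. HERC5, a ligase that attaches ISG15, was higher by 5.37 ± 0.11. RSAD2, or viperin, was below the median on all miR-205 and scramble arrays and was at least 38.4-fold higher in miR-130a cells. IFI44 differed by 3.52 ± 0.10. These 5 genes rose in all 3 miR-130a arrays without overlap with the 3 miR-205 arrays. The miR-203 arrays also carried the response: IFIT1 read 9.71, 9.55 and 9.76 there, between the miR-130a and miR-205 levels.

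**Figure D3:**
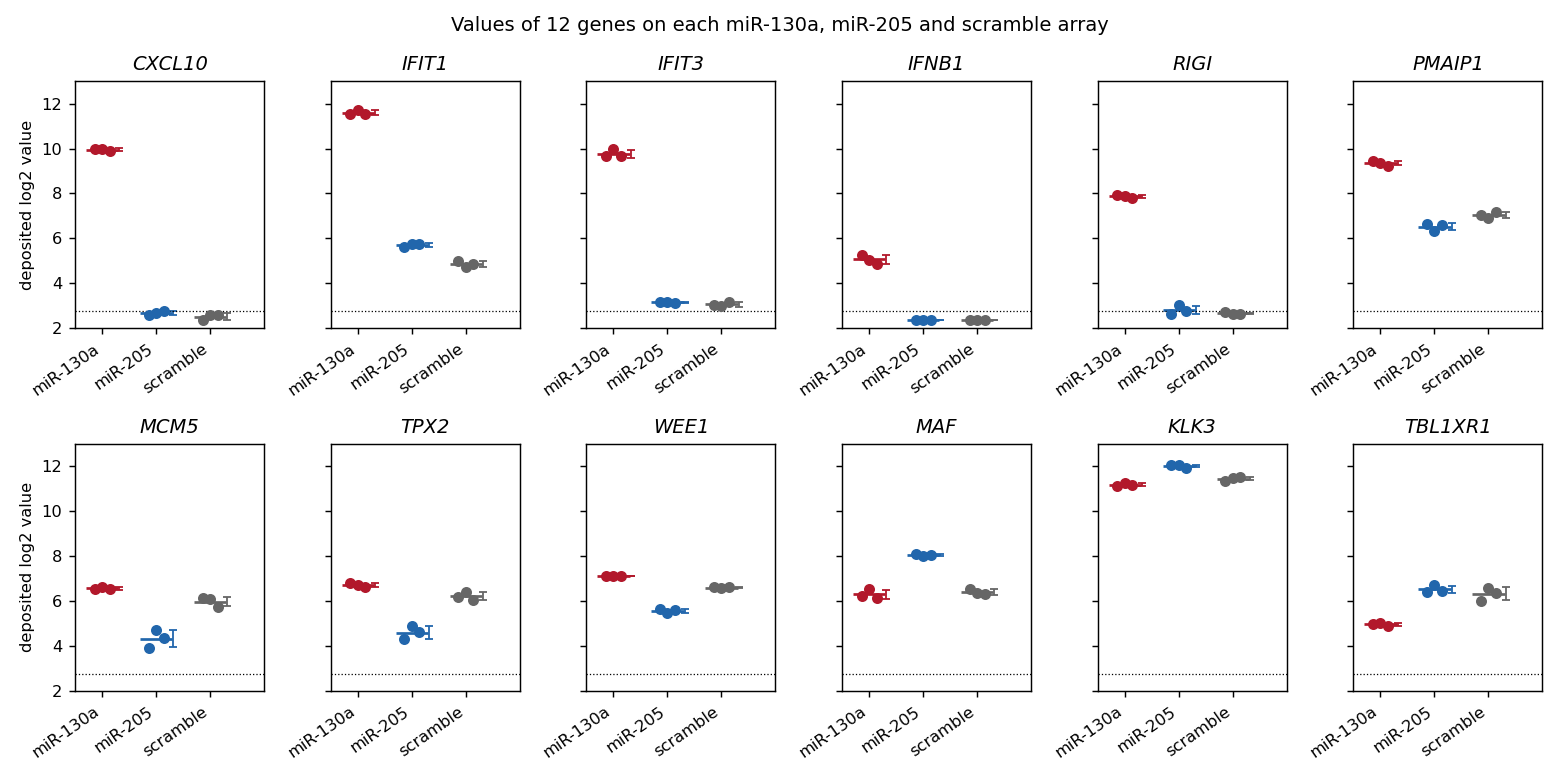
Deposited log2 values of 12 genes (vertical axis) on each of the 3 miR-130a, 3 miR-205 and 3 scramble arrays, with the group mean as a line, its SD as an error bar and the median of an array as a dotted line. CXCL10, IFIT3, IFNB1 and RIGI are near the dotted line in miR-205 and scramble cells and far above it in miR-130a cells, MCM5 and TPX2 are lowest in miR-205 cells, and MAF and KLK3 are highest there.

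Interferon beta and some of the sensors of viral RNA were also higher. IFNB1, interferon beta, had 5.28, 5.06 and 4.87 log2 in miR-130a cells, against 2.37, 2.36 and 2.36 in miR-205 cells and 2.36, 2.37 and 2.37 in scramble cells, where it sat at or near the floor. It was therefore at least 4.94-fold higher. RIGI, which detects RNA with a 5′ triphosphate, read 7.93, 7.91 and 7.80 in miR-130a cells, 2.66, 3.03 and 2.77 in miR-205 cells and 2.71, 2.66 and 2.66 in scramble cells. It was above the median on 2 of 3 miR-205 arrays and no scramble array, and was at least 32.6-fold higher in miR-130a than in miR-205 cells (limma adjusted p = 6.42e-12). IFIH1, or MDA5, a sensor of long double-stranded RNA, was higher by 3.00 ± 0.19. DHX58, from the same helicase family, was at least 1.16-fold higher and ZC3HAV1 0.72 log2 higher. Of the 12 sensor and interferon genes on the arrays 8 were tested, 5 were higher, none was lower and 3 did not pass, and IFNB1 was the 1 interferon gene tested. IFNB1 and DHX58 lay below the median on every miR-205, miR-203 and scramble array, so they passed the filter through the miR-130a arrays and had to differ. Of the 5 members above the median on all miR-205 and scramble arrays, 2 were higher, against 17.8% of the tested genes with that property. The number higher was also 2 when genes had to lie above the median on all 12 arrays, and 2 without genes holding equal values. Without miR-130a replicate 1, 1 member was lower.

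Genes that carry the interferon signal differed in part. Of 15 tested interferon receptor, JAK-STAT and IRF genes, 4 were higher (26.7%, against 18.2% of all tested genes) and 1 was lower. IRF9, the DNA-binding partner in the interferon-activated complex, was higher by 2.70 ± 0.10, IRF7 by 1.79 ± 0.10, JAK2 by 1.15 ± 0.21 and IRF1 by 1.12 ± 0.11 log2. STAT3 was lower by 0.32 log2, but the probe set of largest variance gave 0.012 for it, with the opposite sign, and the call was lost without miR-130a replicate 2 or 3 or miR-205 replicate 3. A pair of members were lower without scramble replicate 2.

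CXCL10, a chemokine that interferon induces, had the largest difference of the tested genes. It read 9.995, 9.96 and 9.89 log2 in miR-130a cells, 2.61, 2.67 and 2.76 in miR-205 cells and 2.36, 2.61 and 2.60 in scramble cells. It was dim on all miR-205 and scramble arrays, and so at least 146-fold higher in miR-130a than in miR-205 cells (limma adjusted p = 5.00e-14). CCL5 was higher by at least 73.1-fold, and for CXCL11 the bound was 66.2-fold. All are ligands that draw lymphocytes. TNFSF10, or TRAIL, a death ligand, was at least 5.39-fold higher. Of 22 listed chemokine and cytokine genes on the arrays, 5 passed the filter and these 4 were higher, while the other 17 were not tested. All 4 lay below the median on every miR-205 array, so they passed the filter through other arrays and had to differ.

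Promoters of the interferon-induced and cell cycle genes were searched for motifs, since these groups moved together. The windows ran from 250 bases before to 50 after the annotated start of each RefSeq gene (GRCh38.p14), and both strands were read. The core of the interferon response element, GAAANNGAA, was found in 22 of the 29 higher interferon effectors with a promoter in the table (75.9%), against 8.29% of all 27305 promoters and 6.64% of the 5737 tested genes with one. The E2F sites TTTCCCGC, TTTGGCGC, TTTCGCGC and TTTGCCGC, which may overlap each other, were in 17 of 41 higher replication genes (41.5%), against 3.33% of all promoters and 5.87% of those of tested genes. The cell cycle homology region, TTTGAA, was in 27 of 40 higher mitosis genes (67.5%), against 15.4% of all promoters and 9.08% of those of tested genes, and the CCAAT box in 72.5% of those genes, against 35.7% and 39.0%. These are descriptions of letters in a window and no test was made. Stretches of 60 bases before the start are printed for 3 higher members of each list that hold such a match there. Not every member was considered for printing, so these 3 need not have the largest differences among those holding a match. Matches are in capitals on the strand of the gene.
IFIT3 (chr10:89327850-89327909, + strand): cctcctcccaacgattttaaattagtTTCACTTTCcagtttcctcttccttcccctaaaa
IFIT1 (chr10:89392495-89392554, + strand): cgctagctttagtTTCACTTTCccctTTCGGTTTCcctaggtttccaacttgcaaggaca
HERC5 (chr4:88457020-88457079, + strand): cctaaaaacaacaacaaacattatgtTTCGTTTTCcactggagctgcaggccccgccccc
GINS2 (chr16:85688955-85689014, - strand): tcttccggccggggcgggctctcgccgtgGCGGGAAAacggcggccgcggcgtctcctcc
MCM6 (chr2:135876496-135876555, - strand): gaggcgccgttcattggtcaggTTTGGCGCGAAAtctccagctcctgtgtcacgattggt
MCM7 (chr7:100101398-100101457, - strand): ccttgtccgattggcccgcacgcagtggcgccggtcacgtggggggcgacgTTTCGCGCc
DLGAP5 (chr14:55191662-55191721, - strand): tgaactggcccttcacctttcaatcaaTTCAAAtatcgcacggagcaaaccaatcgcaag
PRC1 (chr15:90994536-90994595, - strand): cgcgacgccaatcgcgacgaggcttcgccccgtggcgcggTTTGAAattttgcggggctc
CCNB2 (chr15:59105086-59105145, + strand): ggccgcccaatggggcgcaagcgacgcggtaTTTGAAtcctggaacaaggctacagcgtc

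Some genes of antigen presentation, NF-kB feedback and cell death also differed, by smaller amounts, and their counts stand against 18.2% higher and 15.4% lower over all tested genes. Of 15 tested class I and immunoproteasome genes, 8 were higher (53.3%) and 1, PDIA3, was lower (2 without scramble replicate 1 or 2 or miR-203 replicate 1), with a median of 0.43 log2. PSMB9, an immunoproteasome subunit, sat at the floor on all miR-205, miR-203 and scramble arrays, so it passed the filter through the miR-130a arrays and had to differ. Of the other 14 members, which lay above the median on all miR-205 and scramble arrays, 7 were higher, against 17.8% of the tested genes with that property. ERAP1, which trims peptides, was higher by 1.16 ± 0.11, with levels of 4.29, 4.64 and 4.22 in miR-130a cells, 3.07, 3.21 and 3.39 in miR-205 cells and 4.25, 4.34 and 4.16 in scramble cells, so that change lay on the miR-205 side. TAP1, a peptide transporter, was higher by 1.02 ± 0.16 and HLA-B by 0.66 ± 0.09. ULBP2, a ligand of the NKG2D receptor of natural killer cells, was above the median on 1 of 3 miR-205 arrays and no scramble array, and was at least 17.4-fold higher. PLAAT4, a phospholipase, was higher by 4.49 ± 0.11. Both changes lay on the miR-130a side.

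In the NF-kB list 4 of 14 tested genes were higher (28.6%) and none was lower (1 without miR-130a replicate 1). Of the 12 members above the median on all miR-205 and scramble arrays, 3 were higher. TNFAIP3, which restrains NF-kB signalling and was dim on every miR-205 array, was at least 3.37-fold higher in miR-130a cells. TNIP1, its partner, was higher by 1.48 ± 0.10. NFKBIA, the inhibitor IkB-alpha, was higher by 0.46 ± 0.11. Of 22 tested death genes 5 were higher (22.7%) and 3 lower (13.6%), shares near those of all tested genes. PMAIP1, or NOXA, a pro-apoptotic BCL2-family protein, read 9.43, 9.35 and 9.24 in miR-130a cells, 6.66, 6.34 and 6.58 in miR-205 cells and 7.06, 6.90 and 7.16 in scramble cells, a difference of 2.81 ± 0.12 (limma adjusted p = 1.69e-09). FAS, a death receptor, was higher by 1.06 ± 0.10, and CFLAR, which blocks it, by 0.54 ± 0.08. BNIP3L, a mitophagy receptor, was lower by 0.80, on the miR-205 side.

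Cell division genes were higher in miR-130a than in miR-205 cells almost without exception, but here the larger part of the difference lay with miR-205. In the cell cycle, E2F factors switch on DNA replication genes before S phase and the DREAM and FOXM1 complexes switch on mitotic genes before division. Of 51 tested mitosis and spindle genes, 49 were higher (96.1%, against 18.2% of all tested genes) and none was lower. The other 2, CENPA and CENPN, did not pass. A probe set left out of the table because its annotation holds CENPA and another symbol was higher by 1.80 ± 0.21 (limma adjusted p = 7.46e-05 over the probe sets with several symbols or none). The median difference was 1.63 log2. The medians against scramble were 0.48 in miR-130a cells and -1.16 in miR-205 cells. In that comparison 22 members were higher in miR-130a cells and 47 lower in miR-205 cells, against 12% and 14.8% of all tested genes. By position, 19 of the 49 lay on the miR-205 side and 30 on both sides, with 0 on the miR-130a side. Of the 45 members above the median on all 6 miR-205 and scramble arrays, 43 were higher, against 17.8% of the tested genes with that property.

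DLGAP5, which stabilizes spindle microtubules, had 5.99, 6.22 and 6.19 log2 in miR-130a cells, 3.38, 4.20 and 3.98 in miR-205 cells and 5.63, 5.66 and 5.38 in scramble cells. Its difference, 2.28 ± 0.30 (limma adjusted p = 6.88e-05), was the largest of the list, and the arrays did not overlap. TPX2, which activates Aurora A on the spindle, read 6.80, 6.71 and 6.63 in miR-130a cells, 4.31, 4.89 and 4.61 in miR-205 cells and 6.17, 6.42 and 6.07 in scramble cells. Its difference was 2.11 ± 0.16, 0.49 of it above scramble and 1.61 below. NDC80, a kinetochore protein, differed by 2.15 ± 0.17, PRC1, which bundles the central spindle, by 2.09 ± 0.20, and KIF20A, a kinesin of cytokinesis, by 2.09 ± 0.16. MKI67, the proliferation antigen, was 0.82 ± 0.10 higher and lay on the miR-205 side.

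Of 51 tested DNA replication genes, 47 were higher (92.2%), 1 was lower (1.96%) and 3 did not pass, against 18.2% and 15.4% of all tested genes. Their median was 1.02 log2 (0.32 against scramble in miR-130a cells and -0.70 in miR-205 cells). MCM5, a subunit of the replicative helicase, had 6.52, 6.63 and 6.54 in miR-130a cells, 3.94, 4.71 and 4.37 in miR-205 cells and 6.13, 6.08 and 5.73 in scramble cells. Its difference was 2.23 ± 0.16 (limma adjusted p = 4.05e-07) and the 3 groups did not overlap. GINS1 and GINS2, partners of that helicase, differed by 1.98 ± 0.14 and 1.93 ± 0.16. RRM2, which makes deoxynucleotides, differed by 1.95 ± 0.15 and MCM2 by 1.79 ± 0.10. ORC5, named after its values were seen, was the 1 gene of the list that was lower, by 0.41.

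**Figure D4:**
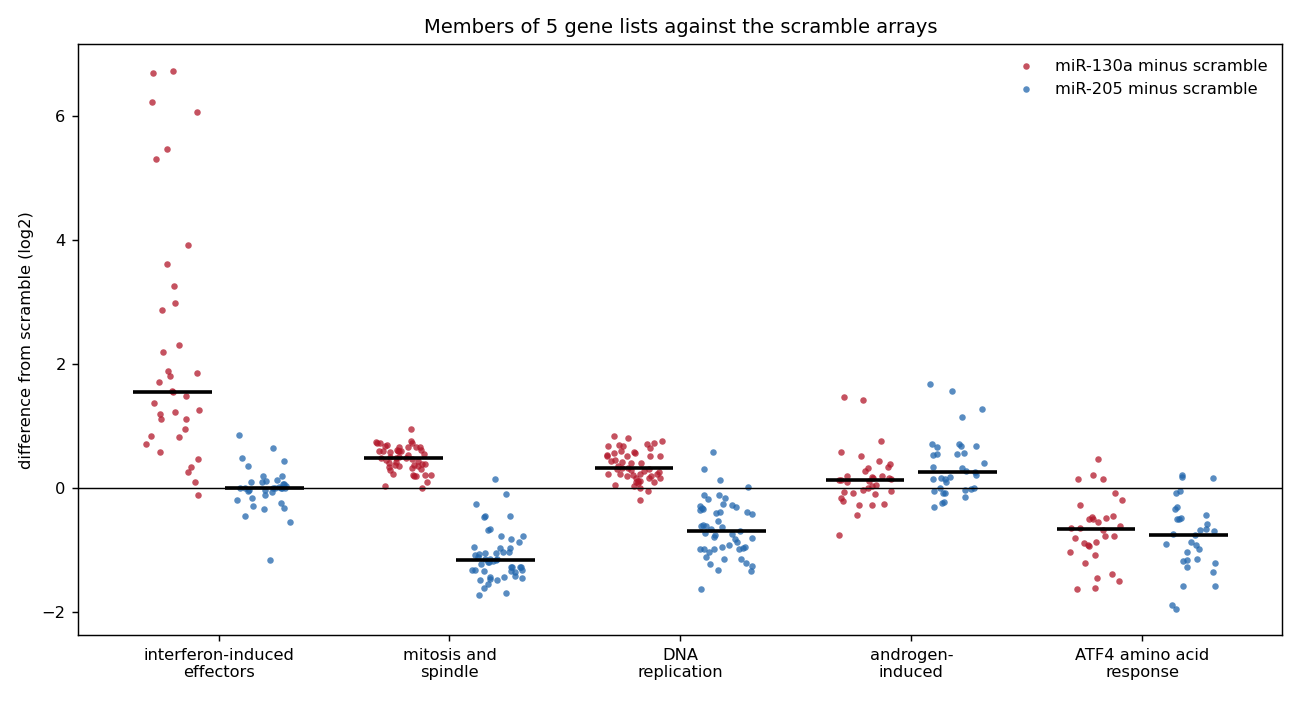
Difference from scramble (vertical axis, log2) for each tested member of 5 gene lists in miR-130a cells (left of each pair) and miR-205 cells (right), with black bars at the medians. Interferon-induced effectors have a median of 1.55 in miR-130a cells and 0.00 in miR-205 cells, mitosis genes 0.48 and -1.16, and ATF4 genes -0.67 and -0.76. Both differences of a member share the scramble arrays.

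Checkpoint and G1 genes followed, with fewer members past the threshold. Of 27 tested repair and checkpoint genes, 15 were higher (55.6%, against 18.2% of all tested genes) and none was lower, with a median of 0.60 log2. CHEK2, a checkpoint kinase, was above the median on 2 of 3 miR-205 arrays and was at least 3.60-fold higher. WEE1, which inhibits CDK1, was higher by 1.54 ± 0.08. WEE1 had 7.12, 7.11 and 7.11 in miR-130a cells, 5.64, 5.46 and 5.61 in miR-205 cells and 6.62, 6.56 and 6.61 in scramble cells, a narrow spread within each group. Of 28 tested G1 cyclins, kinases, inhibitors, E2F and RB genes, 15 were higher (53.6%) and 5 lower (17.9%, against 15.4% of all tested genes). CDC25A, the phosphatase that activates CDK2, was higher by 1.72 ± 0.08, SKP2, which marks p27 for degradation, by 1.47 ± 0.13, MYBL2 by 1.55 ± 0.10 and CCNE2 by 1.41 ± 0.23. The count lower was 3 without miR-205 replicate 3. H2AX, a histone variant that marks DNA breaks, read 9.58, 9.54 and 9.55 in miR-130a cells, against 7.83, 8.25 and 8.09 in miR-205 cells and 8.93 to 9.20 in scramble cells.

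Androgen-induced genes leaned the other way. The androgen receptor, activated by androgens, drives luminal secretory genes, and LNCaP cells are known for this response. Of 35 tested androgen-induced genes, 13 were lower in miR-130a than in miR-205 cells (37.1%, against 15.4% of all tested genes) and 4 were higher (11.4%), with a median of -0.14 log2. Against scramble, 18 were higher in miR-205 cells and 9 in miR-130a cells, against 11.3% and 12% of all tested genes. KLK3, the gene of prostate-specific antigen, had 11.11, 11.24 and 11.17 log2 in miR-130a cells, 12.06, 12.04 and 11.93 in miR-205 cells and 11.36, 11.48 and 11.50 in scramble cells. It differed by -0.84 ± 0.08 (limma adjusted p = 3.30e-06), with scramble between the groups. NDRG1 was lower by 1.11 and MAF, a transcription factor, by 1.77, each on the miR-205 side. FKBP5, a classic target named after its values were seen, read 5.36, 5.38 and 5.28 in miR-130a cells, 5.50, 5.64 and 5.19 in miR-205 cells and 3.86, 3.73 and 4.06 in scramble cells, so both groups were above scramble and the difference between them was -0.10 (adjusted p = 0.655).

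Of 39 tested androgen receptor coregulators, 8 were higher (20.5%) and 5 lower (12.8%), near the 18.2% and 15.4% of all tested genes. TBL1XR1, a subunit of the NCoR corepressor complex, had 4.97, 5.02 and 4.90 in miR-130a cells, 6.42, 6.70 and 6.47 in miR-205 cells and 6.01, 6.58 and 6.39 in scramble cells. Its difference was -1.57 ± 0.13 (limma adjusted p = 1.27e-06), on the miR-130a side. EP300, a histone acetyltransferase, was lower by 0.62, and MED1, a Mediator subunit and described miR-205 target, by 0.47. Other bright probe sets of EP300 and MED1 gave -0.0009 and -0.24, so the change in EP300 rests on 1 probe set. KAT2B, NCOA4 and HSP90AA1 were higher by 0.68 ± 0.16, 0.58 ± 0.07 and 0.57 ± 0.07. The number lower was 2 without miR-130a replicate 3, and 3 without miR-130a replicate 1, miR-205 replicate 1 or miR-205 replicate 3. The call for MED1 was lost under some alternatives.

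The remaining genes that were lowest in miR-130a relative to miR-205 cells included membrane and signalling genes. SEMA6A, a transmembrane semaphorin, was lower by 1.60, with 3.82, 3.78 and 3.56 in miR-130a cells, 5.25, 5.15 and 5.57 in miR-205 cells and 4.25, 3.75 and 4.11 in scramble cells. ENDOD1 was lower by 1.47, ADRA2A, an alpha-2 adrenergic receptor, by 1.45, CDC42EP3, a CDC42 effector, by 1.43, ANK3, ankyrin-G, by 1.41 and ZMAT3, a p53 target, by 1.39. RAB26, AZGP1 and H2BC21 were lower by 1.38, 1.37 and 1.29, and CDK19, the Mediator kinase, by 1.28. Of these, SEMA6A, CDC42EP3 and H2BC21 lay on the miR-205 side, CDK19 on the miR-130a side, and the others between.

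Most genes of the ATF4 response were below scramble in both groups, and their median difference between the groups was small. ATF4 is the transcription factor that raises amino acid synthesis, transport and tRNA charging genes when amino acids run short. Of 32 tested genes of this response, 10 were higher in miR-130a than in miR-205 cells (31.2%) and 3 were lower (9.38%), against 18.2% and 15.4% of all tested genes, with a median of 0.05 log2. Against scramble, 24 of 32 were lower in miR-130a cells and 26 in miR-205 cells, against 11.6% and 14.8% of all tested genes, and the medians were -0.67 and -0.76. ASNS, asparagine synthetase, chosen after its values were seen, had 8.34, 8.15 and 8.34 in miR-130a cells, 7.98, 8.27 and 8.32 in miR-205 cells and 9.78, 9.78 and 9.80 in scramble cells. The microRNA groups overlapped and differed by 0.09 ± 0.10 (adjusted p = 0.541 in limma), while both lay below scramble. ATF4 itself differed by -0.09 between them (adjusted p = 0.377) and was 1.08 and 0.99 below scramble in miR-130a and miR-205 cells.

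Of the 13 genes of this response that differed, 10 were lower in miR-205 than in miR-130a cells. EIF4EBP1, which restrains cap-dependent translation, was higher by 0.78 ± 0.09 and PSAT1, of serine synthesis, by 0.58 ± 0.12, both with scramble above both groups. SLC7A11, the cystine transporter, was lower by 0.86, with miR-130a lowest. GDF15, a stress cytokine listed with the p53 targets and not among these 13, was higher by 0.49 ± 0.10. ATF3 was higher by 1.04 ± 0.13 and CEBPB by 0.85 ± 0.08. Of 24 tested aminoacyl-tRNA synthetases 5 were higher (20.8%) and 1 lower (4.17%), against 18.2% and 15.4% of all tested genes. WARS1, which is also induced by interferon, was higher by 1.49 ± 0.10, and HARS1 by 0.47 ± 0.09. Of 33 tested ER genes, 5 were higher (15.2%) and 9 lower (27.3%), against the same shares of all tested genes. DNAJC10, an ER disulfide reductase, was lower by 0.95, and CRELD2, an ER stress gene, and XBP1, a transcription factor of the unfolded protein response, were higher by 0.80 ± 0.07 and 0.79 ± 0.12. The synthetases higher numbered 2 without miR-130a replicate 2, miR-205 replicate 1 or miR-205 replicate 3, and 3 without each of the other 3 arrays of these groups or miR-203 replicate 2. Those lower numbered 2 without scramble replicate 2 and 3 without miR-203 replicate 1. The ER genes higher numbered 3 without miR-130a replicate 2 or 3 or miR-205 replicate 3.

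Metabolic genes differed in both directions, as did 18.2% (higher) and 15.4% (lower) of all tested genes. Of 26 tested genes of a fatty acid oxidation list, which is mostly mitochondrial but also holds the peroxisomal ACAA1, 8 were lower (30.8%) and 2 higher (1 without miR-205 replicate 1), with a median of -0.13 log2. ACAA1, the peroxisomal thiolase, was lower by 1.19, mostly on the miR-130a side, with 7.80, 7.55 and 7.50 in miR-130a cells, 8.73, 8.80 and 8.87 in miR-205 cells and 8.61, 8.52 and 8.51 in scramble cells. ACADSB was lower by 0.66. In cholesterol and fatty acid synthesis, 8 of 30 were higher and 6 lower: INSIG1, which holds back sterol signalling, was higher by 0.97 ± 0.15 and ME1, malic enzyme, was lower by 0.69. Of 52 respiratory chain and ATP synthase genes 3 were higher and 9 lower, all within 0.41 log2 of 0. Of 29 glycolysis and hypoxia genes 3 were higher and 6 lower, with ALDOC lower by 0.63. Leaving out miR-130a replicate 1 or 3 or miR-205 replicate 1 or 2 left 4 lower respiratory genes. Without miR-130a replicate 2 or 3 or miR-205 replicate 1 or 3, 1 glycolysis gene was higher.

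Members of the growth signalling lists are given against the 18.2% higher and 15.4% lower of all tested genes. HRAS, a small GTPase, was higher by 1.24 ± 0.11, with 6.99, 6.86 and 6.75 in miR-130a cells, 5.54, 5.60 and 5.73 in miR-205 cells and 7.07, 7.24 and 7.25 in scramble cells. LYN, a Src-family kinase and described miR-205 target, was higher by 1.05 ± 0.13, and RPS6KA3, a kinase downstream of ERK, was lower by 1.01. In this list 2 of 23 RAS, MEK-ERK and ERBB genes were higher (8.70%) and 5 lower (21.7%). Of 14 ERK-induced genes 7 were higher (50%) and 2 lower (14.3%). JUN, an AP-1 subunit, was higher by 1.12 ± 0.08 and CCND1, cyclin D1, by 1.00 ± 0.10. In the PI3K, AKT and mTOR list 9 of 29 were higher (31.0%) and 5 lower (17.2%). RPS6KB2, an S6 kinase, was above the median on 2 of 3 miR-205 arrays and was at least 2.96-fold higher, with 4.56, 4.49 and 4.51 in miR-130a cells, 2.74, 3.10 and 3.01 in miR-205 cells and 4.74, 4.51 and 4.87 in scramble cells, and IGF1R, the insulin-like growth factor receptor, was lower by 0.92. Both changes lay on the miR-205 side.

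The structural and regulatory lists are read against the background of 18.2% higher and 15.4% lower. Of 48 actin and adhesion genes 10 were higher and 7 lower, with RHOB lower by 0.93 and MYH10, non-muscle myosin IIB, higher by 0.73 ± 0.07. Of 24 epithelial junction genes 3 were higher and 4 lower, and OCLN, occludin, was higher by 0.82 ± 0.12. Of 21 TGF-beta, BMP and SMAD genes 2 were higher and 3 lower (5 without miR-130a replicate 1), with ID2, an inhibitor of bHLH factors, lower by 1.07. Of 24 p53 targets 5 were higher, among them PMAIP1 and FAS, and 5 lower. In the microRNA machinery 3 of 18 were higher and 2 lower (1 without miR-130a replicate 2 or miR-205 replicate 1 or 2). DROSHA, which cleaves primary microRNAs, was higher by 0.67 ± 0.11, and TNRC6B, a silencing partner of Argonaute, was lower by 0.84. Of 31 ribosomal protein genes 1 was higher and 1 lower (0 without miR-130a replicate 2 or 3 or any 1 miR-205 replicate), and of 15 core histone genes 6 were higher and 3 lower. The actin genes higher numbered 3 without miR-130a replicate 1, 5 without miR-205 replicate 3, and 6 without miR-130a replicate 2 or miR-205 replicate 1. The p53 targets lower numbered 2 without miR-205 replicate 1, and 3 without miR-130a replicate 3 or miR-205 replicate 3.

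Described targets of the 2 microRNAs were written from general knowledge. MicroRNAs lower their targets, so a target of miR-130a would be lower in miR-130a cells. Of 15 tested miR-130a targets, 5 were lower (33.3%, against 15.4% of all tested genes) and 2 higher in miR-130a cells. By position, 2 lay on the miR-130a side, ROCK1 and KLF4, and KLF4 was higher. A further 2 lay on the miR-205 side and 1 on both sides, and for 2 scramble lay beyond miR-205. Against scramble, 3 of the 15 were lower in miR-130a cells and 2 in miR-205 cells, against 11.6% and 14.8% of all tested genes. ROCK1, a kinase of actomyosin contraction, had 6.09, 5.87 and 6.02 in miR-130a cells, 6.93, 6.72 and 6.88 in miR-205 cells and 6.83, 6.81 and 6.71 in scramble cells. It was lower by 0.85 (limma adjusted p = 5.27e-06), on the miR-130a side. ACVR1, an activin receptor, was lower by 0.46, ATG2B, an autophagy protein, by 0.56 and TSC1, an inhibitor of mTOR signalling, by 0.42. The calls for ATG2B and TSC1 were lost under some alternatives, and 3 targets were lower without miR-130a replicate 2 or miR-205 replicate 1. KLF4, a transcription factor of stem and epithelial cells, was higher, with 7.82, 7.77 and 7.65 in miR-130a cells, 4.13, 4.22 and 4.32 in miR-205 cells and 4.55, 4.28 and 4.67 in scramble cells. It was higher by 3.52 ± 0.11 log2, and DNMT1 was higher by 0.86 ± 0.11. DICER1, also listed, differed by 0.09 ± 0.12 (adjusted p = 0.621), and both groups were above scramble.

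Of 21 tested miR-205 targets, 5 were higher in miR-130a cells (23.8%, against 18.2% of all tested genes) and 6 were lower (28.6%, against 15.4%). By position, 3 lay on the miR-205 side, 2 on the miR-130a side and 4 on both sides. Against scramble, 6 of the 21 were lower in miR-205 cells and 3 in miR-130a cells, against 14.8% and 11.6% of all tested genes. In each group 4 were higher than scramble, against 11.3% in miR-205 and 12% in miR-130a cells. CENPF, a kinetochore protein that also belongs to the mitosis list, was higher by 1.54 ± 0.17. E2F1, which is also on the list of G1 genes, was higher by 0.72 ± 0.13. RAB27A, of vesicle secretion, was higher by 0.61 ± 0.10 and PHLPP2, an AKT phosphatase, by 0.58 ± 0.13. Other bright probe sets of CENPF and E2F1 gave 0.24 and 0.30, and those of RAB27A gave 0.55 and -0.04. Among those lower were CDK19, E2F5 (-0.40) and YES1 (-0.51), whose call was lost under some alternatives. Other bright probe sets gave -1.38 and -0.17 for CDK19 and -0.11 for YES1. ERBB3, a described miR-205 target, read 7.36, 7.16 and 7.05 in miR-130a cells, 7.07, 7.19 and 7.22 in miR-205 cells and 7.30, 7.47 and 7.37 in scramble cells. It differed by 0.03 ± 0.09 (adjusted p = 0.822) and the groups overlapped. VEGFA, another, differed by -0.04 ± 0.07 (adjusted p = 0.689), and both groups were below scramble.

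**Figure D5:**
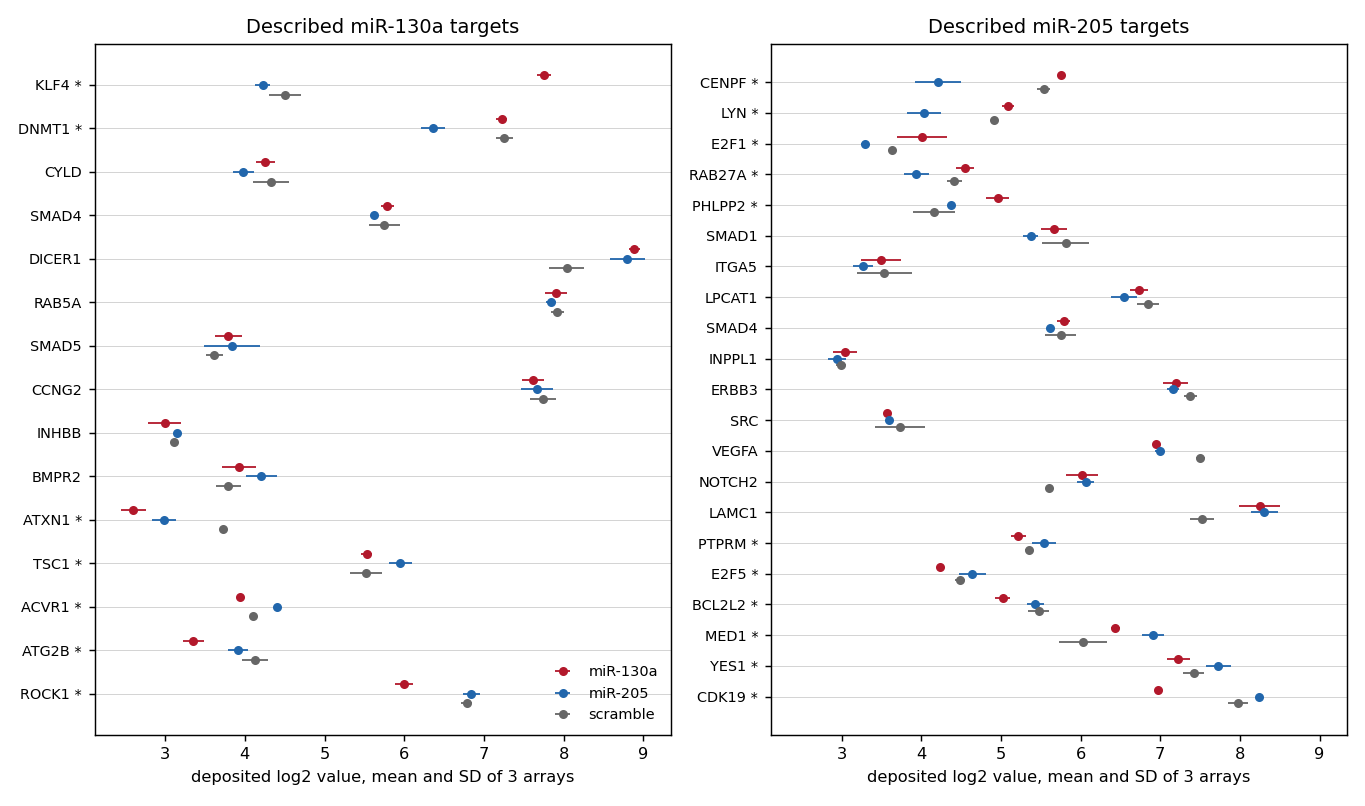
Mean deposited log2 value with the SD of 3 arrays (horizontal axis) for the tested described targets of miR-130a (left) and of miR-205 (right) in miR-130a, miR-205 and scramble cells, with an asterisk on genes past the threshold between miR-130a and miR-205. KLF4 is 3.52 higher in miR-130a cells while ROCK1 is 0.85 lower, and most of the other targets lie close together.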

How the data were processed

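Total RNA was extracted with Trizol and labelled with biotin, per the labels. The authors deposited one log2 value per probe set and array; the tools listed, per the submitters' processing notes, are R 2.9.0, RMA and limma, without their roles. How background was corrected was not given in the sources used here. GEO's platform annotation supplied gene names: 19070 of 22277 had 1 symbol, 1043 several and 2164 none. A group-means model of the 12 arrays was fitted with limma 3.58.1 (R 4.3.3) and moderated by eBayes, on 8 residual and 4.84 prior degrees of freedom, two-sided, adjusted by Benjamini-Hochberg over 6821 genes at 0.05. An exact test of 3 arrays against 3 cannot go below p = 0.1. The p-values measure the spread between these arrays. Self-tests on simulated data were run. Lists and members were chosen with earlier results of these data known. Named genes were the 15 largest and 15 smallest non-overlapping differences, up to 5 members per list, all measured described targets, and fixed genes. Replicate numbers were not taken to pair the groups compared: same-number deviations of miR-130a and miR-205 arrays correlated at r 0.03 to 0.08. Those of miR-203 and miR-205 arrays correlated at 0.10 to 0.31. Python 3.11.15 with pandas 2.3.3 and matplotlib 3.10.9 summarised and drew the values.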

Additional observations from a re-analysis of the deposited data

Results flagged for a closer look

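Probe sets annotated with several gene symbols were outside the gene table, and their values cannot be given to 1 gene. Of them, 6 were at least 1.5 log2 higher in miR-130a than in miR-205 cells, and 5 of these were also above scramble at an adjusted p under 0.05. The sixth, the probe set holding CENPA that is given with the mitosis genes, was 0.39 above scramble (limma adjusted p = 0.228). Of the 5, 4 carry the same set of symbols, which includes TARP, so they are not separate findings. Against scramble these 5 were higher in miR-130a cells by 1.85, 1.49, 1.47, 1.46 and 1.38 log2. Against miR-205 they were higher by 1.75 to 2.20 log2, with limma adjusted p between 2.78e-09 and 3.14e-05. The limit was set only for the higher direction. In the lower direction, a probe set that holds AMACR and another symbol differed by -1.54 log2 (limma adjusted p = 2.47e-05). It was 1.52 above scramble in miR-205 cells. Others with the same symbols differed by -0.99 and -0.91.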

How the results depend on the processing

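Over 23 alternatives the genes higher in miR-130a cells numbered 998 to 1470 and the lower genes 780 to 1382, against 1243 and 1050. Leaving out 1 array in turn gave 998 to 1302 and 780 to 1136. Quantile scaling gave 1174 higher and 1234 lower, so the share of lower calls was 51.2% in place of 45.8%. With the replicate number as a block there were 1246 higher and 1063 lower, and 2215 of the calls were shared. All 3 miR-130a arrays correlated best with the miR-205 array of their own number, a hint from the data and not from the design. The interferon effectors counted 22 higher, in place of 35, when genes had to lie above the median on all 12 arrays, and 23 without genes holding equal values in a group; fewer genes were tested in both. Without equal values there were 47 higher mitosis genes, 41 higher replication genes and 10 lower androgen-induced genes. Leaving out 1 array at a time gave 35 interferon effectors each time, 48 to 49 mitosis genes, 42 to 47 replication genes and 11 to 14 lower androgen-induced genes. STAT3 changed sign to 0.012 with the probe set of largest variance, and the cause was not tested. Of the genes past the threshold, 808 had other bright probe sets. Of these 1158 probe sets, 1071 (92.5%) had the same sign as the one used. Of 188 named genes, 171 passed the threshold, 22 of these lost it under some alternative and 2 others, BMPR2 and SMAD1, gained it. Of 64 counts over lists, 31 moved by over 1.5 times somewhere, most of them small. With 3 arrays a group, small differences are not resolved, and 1425 genes have equal values in a group, which narrows their measured spread.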
